A study of Rattus norvegicus with 4 samples.

Results

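This section describes 8 rat genes of haem synthesis in iron oxide-exposed macrophages: the enzymes Alas1, Alad, Uros, Urod, Cpox, Ppox and Fech, and Slc25a37, which encodes the mitochondrial iron importer mitoferrin-1. They were chosen by name, and every non-control probe whose RefSeq accession maps to a member symbol was taken. This gave 10 probes of 21109 with a gene symbol, and 8 of 16581 named genes. The cells were NR8383, an alveolar macrophage line derived from rat lung lavage, which the labels describe after 20 passages. They were exposed for 4 h to 2 µg/mL of Fe2O3 particles named NRCWE018. The 4 exposed cultures are biological replicates per the design, each hybridised to 1 single-colour array. Unexposed cultures are not analysed here, and no value below measures an effect of the particles. The results are which genes of the pathway were measurable in exposed macrophages, and how far they differed between cultures.

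Haem is made in steps that alternate between mitochondrion and cytosol. Aminolaevulinate synthase joins glycine to succinyl-CoA in the mitochondrial matrix, cytosolic enzymes build a porphyrin ring from the product, and the last enzymes, back in the mitochondrion, oxidise the ring and insert iron. Outside red cell precursors the synthase is Alas1, which haem represses, and the erythroid form is Alas2. Macrophages need haem for respiratory and oxidase cytochromes and also recover haem from engulfed red cells.

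The 75th percentile of the processed signal lay between 756.5 and 1082 on the 4 arrays, lowest on replicate 4, and no spot was saturated. Between 37.8% and 41.2% of 45598 probes were well above background, a mark that the scanner software sets per spot. The 4 arrays lay on 1 slide, so culture and slide position cannot be told apart, and precision is limited by their number. Of 11 general macrophage markers, 9 were above background on all 4 arrays, including Cd68, Csf1r and Lyz2, whereas Cd163 and Adgre1 were above it on none. Of 6 measured alveolar macrophage markers, 4 were above background on all arrays, and Marco and Car4 on none. None of the 7 lung epithelium, 4 lymphoid and granulocyte or 4 liver markers was above background. Of the endothelium and fibroblast markers, Pecam1 and Cdh5 were above background on all arrays and the other 3 on none.

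Transcripts of all 7 member enzymes were measurable, and mitoferrin-1 lay at the limit of detection. For 7 of the 8 genes every probe was well above background on all 4 arrays, against 50.5% of named genes by their best probe. Counted as probes, 9 of 10 were, against 49.0% of named probes. The exception was the single Slc25a37 probe, above background on replicates 3 and 4 only. A signal under that mark is no evidence that a gene was off. Alas2, the erythroid form of the first enzyme, is not among the 8 genes and was above background on none of the arrays.

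**Figure D1:**
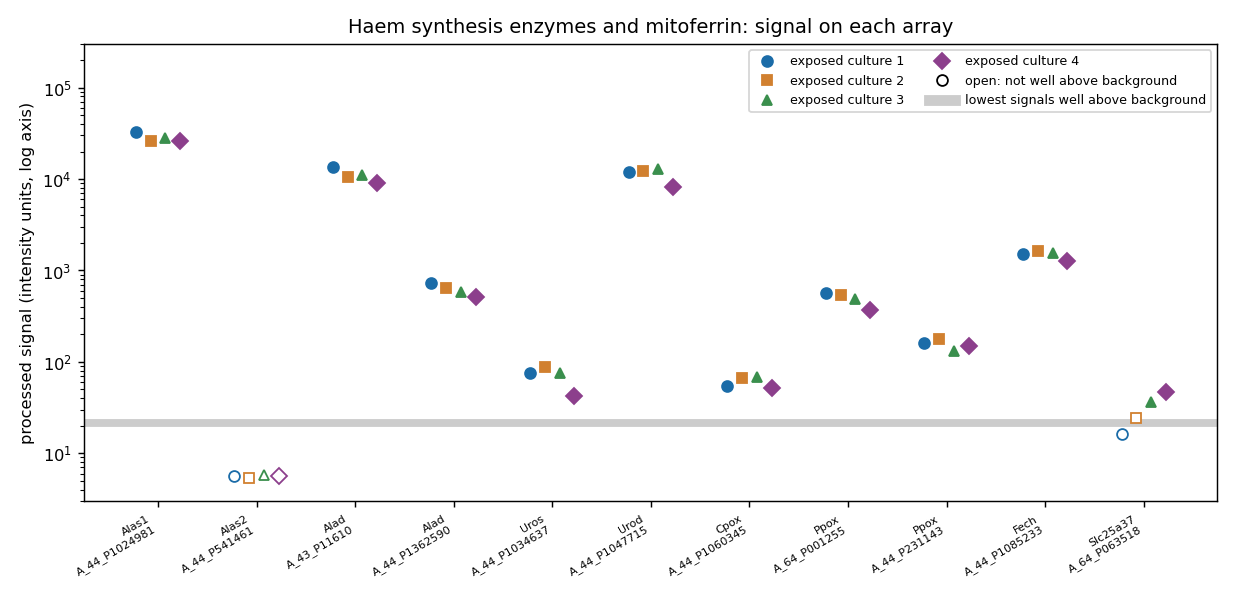
Processed signal (log axis) of each member probe and of the Alas2 probe on the 4 exposed arrays, ordered along the pathway; filled symbols were well above background and open symbols were not. The grey band spans the lowest signals marked as above background on each array, 19.8 to 22.9. Signals of different probes are not on a common scale, so only the 4 symbols of 1 probe can be compared.

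Alas1 carries out the first and rate-limiting step. Its processed signal was 32889, 26306, 27768 and 25822 on replicates 1 to 4. Relative to the 75th percentile of its array, the scale used for comparing arrays from here on, its log2 level was 4.94, 4.74, 4.68 and 5.09 (mean 4.86 ± 0.19, SD, n = 4). Replicates 2 and 3 were the lower pair and replicates 1 and 4 the higher pair, separated by a step of 0.20. On this scale the step was larger than 2 times the SD of a difference between single spots, estimated from probes spotted 10 times per array at like signal. That SD holds the error within an array alone, and the step was picked after the values were sorted. The software's own error on the Alas1 signal was 10% on each array. In the limma test of spread given below, the unadjusted p of Alas1 was 0.279. Replicates 2 and 3 were the lower pair in each of the 6 scalings run. The step within the low pair was 0.06 and that within the high pair 0.15, neither beyond that limit. Alas2, from a separate gene, gave 5.65, 5.31, 5.83 and 5.67 signal units on replicates 1 to 4, near the median of 4.90 to 5.58 for all probes not above background on an array.

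Alad, porphobilinogen synthase, joins 2 aminolaevulinate molecules in the cytosol, and it had 2 probes for the same transcript accession. The probe A_43_P11610 had log2 levels of 3.66, 3.41, 3.37 and 3.60 on replicates 1 to 4 (3.51 ± 0.14, SD, n = 4). The probe A_44_P1362590 had levels of -0.57, -0.61, -0.91 and -0.54 (-0.66 ± 0.17, SD, n = 4). Both probes were lowest on replicate 3. This held in all 6 scalings for A_44_P1362590 and in 2 of 6 for A_43_P11610, which was otherwise lowest on replicate 2. Deviations of the 2 probes from their own means differed by at most 0.14 on any array. On this scale each probe had 1 step past the single-spot limit described for Alas1. It was 0.19, between replicates 2 and 4, for A_43_P11610 and 0.30, between replicates 3 and 2, for A_44_P1362590.

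Uros closes the linear tetrapyrrole into uroporphyrinogen III, and Urod removes carboxyl groups from its side chains. The Uros signal was low, at 75.4, 88.5, 76.2 and 42.3 units on replicates 1 to 4, and its log2 level was -3.83, -3.47, -3.83 and -4.16 (-3.82 ± 0.28, SD, n = 4). Replicate 2 was highest in all 6 scalings and replicate 4 lowest in 5, and replicates 1 and 3 were level to within 0.01. No step between neighbouring Uros values passed the single-spot limit, because repeat spots at such low signals had an SD of 0.17. The Urod level was 3.48, 3.62, 3.58 and 3.43 (3.53 ± 0.09, SD, n = 4). Replicate 4 was lowest, as in 5 of the 6 scalings.

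Cpox, Ppox and Fech work in the mitochondrion: Cpox makes protoporphyrinogen IX, Ppox oxidises it to protoporphyrin IX, and Fech inserts ferrous iron. Cpox was near the low end, at 54.5, 66.0, 69.0 and 51.5 signal units on replicates 1 to 4, with log2 levels of -4.30, -3.90, -3.97 and -3.88 (-4.01 ± 0.20, SD, n = 4). It was lowest on replicate 1 in all 6 scalings, and its SD was 1.09 times that of repeat spots of like signal. Ppox had 2 probes for the same accession. A_64_P001255 lay at -0.93, -0.87, -1.14 and -1.03 (-0.99 ± 0.12, SD, n = 4), and A_44_P231143 at -2.75, -2.45, -3.03 and -2.34 (-2.64 ± 0.31, SD, n = 4). Both Ppox probes were lowest on replicate 3, in all 6 scalings for A_44_P231143 and in 5 of 6 for A_64_P001255. They did not share their highest array on this scale, which was replicate 2 for A_64_P001255 and replicate 4 for A_44_P231143. Each of these held in 5 of 6 scalings, and after normexp correction both probes were highest on replicate 2. On this scale the deviations of the 2 probes differed by up to 0.34. The Fech level was 0.51, 0.72, 0.52 and 0.74 (0.62 ± 0.12, SD, n = 4), with replicates 1 and 3 below replicates 2 and 4 by a step of 0.20 that did not pass the single-spot limit. The order of the Fech values was found in this scaling alone of the 6, and its SD was 0.02 with arrays centred on their median.

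Slc25a37 carries iron into the matrix, where Fech uses it, and is best known from erythroid cells, whereas its paralogue Slc25a28 (mitoferrin-2) is widely expressed. The Slc25a37 signal was 16.1, 24.6, 36.9 and 46.9 units on replicates 1 to 4, marked as positive and significant on all of them. The median pixel of its spot was 71.5, 79.0, 94.0 and 96.0 units against a local background of 42, 44.5, 42 and 45. The software's own error on the processed signal was 36.9%, 24.1%, 18.7% and 16.7%, against 10.0% for the bright members. In log2 level this was -6.05, -5.32, -4.87 and -4.01, a range of 2.04, and replicate 4 was highest and replicate 1 lowest. The values on replicates 1 and 2 are not above background, so the range is no exact difference between cultures. The same order was found with all 6 scalings run and in the unscaled signal, but the range was 0.78 after normexp background correction. All but the normexp values start from the same processed signal, so the shared order is no independent support. The median pixel also stood over its local background by about as much on replicate 3 (94.0 over 42) as on replicate 4 (96.0 over 45). Of the 9 other member probes, 8 had their lowest unscaled signal on replicate 4, where Slc25a37 had its highest. Around the Slc25a37 spot, within 10 rows and 3 columns, the median signal of 63 probes below background on every array was 5.73, 5.41, 5.80 and 6.38, and the median deviation of 69 probes above background on every array was -0.07, 0.00, -0.07 and 0.16. The part of this neighbourhood in the Slc25a37 values was not tested. Slc25a28 was above background on every array, at 1.85, 1.91, 1.70 and 1.91 (1.84 ± 0.10, SD, n = 4).

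Promoter sequence is shown for the first enzyme and for the last 2, as examples whose windows differ in the motifs they hold. This choice used the motif matches reported below. RefSeq promoter windows on GRCr8 were matched by symbol for 6 members. Cpox and Slc25a37 are named only. Each window below is the 250 bases before the annotated start, 5′ to 3′ on the gene's strand, and capitals mark motif matches on either strand.
Alas1, chr8:115768643-115768892, minus strand: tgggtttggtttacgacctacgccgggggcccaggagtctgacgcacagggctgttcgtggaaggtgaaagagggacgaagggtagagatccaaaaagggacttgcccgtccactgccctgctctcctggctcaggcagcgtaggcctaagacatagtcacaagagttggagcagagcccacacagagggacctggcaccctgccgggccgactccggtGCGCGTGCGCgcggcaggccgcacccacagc
Ppox, chr13:86234247-86234496, minus strand: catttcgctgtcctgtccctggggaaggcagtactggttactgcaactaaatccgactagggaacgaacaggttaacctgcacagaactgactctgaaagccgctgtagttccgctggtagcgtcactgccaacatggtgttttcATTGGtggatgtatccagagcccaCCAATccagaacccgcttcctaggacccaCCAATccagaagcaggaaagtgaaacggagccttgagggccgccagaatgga
Fech, chr18:60248526-60248775, minus strand: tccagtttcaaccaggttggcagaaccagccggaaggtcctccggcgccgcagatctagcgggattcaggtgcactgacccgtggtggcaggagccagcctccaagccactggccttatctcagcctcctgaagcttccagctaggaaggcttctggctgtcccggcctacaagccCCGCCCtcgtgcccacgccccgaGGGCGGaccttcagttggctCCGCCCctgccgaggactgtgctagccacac
The Alas1 window held the core recognised by nuclear respiratory factor 1 (on the opposite strand, 22 to 31 bases before the start), a sequence in 3.75% of 33469 promoter windows and in no other member window. The Fech window held 3 GC boxes (GGGCGG, in 30.5% of windows), as did Urod, and Alad held 4, of which 2 overlap. The Ppox window held 3 CCAAT boxes (34.0% of windows) and no GC box. The Alad and Urod windows each held 1 CACGTG sequence (5.59% of windows). No member window held a TATA box (TATAAA), which 12.9% of windows held. None held the cyclic AMP response element (TGACGTCA, in 1.59% of windows). The AP-1 site (TGANTCA, in 6.34% of windows) was also in none. The same was true of the antioxidant response element core (TGACNNNGC, in 10.1% of windows). The Uros window held none of the 8 motifs searched. A match describes letters only. Nrf1, the gene of nuclear respiratory factor 1, was above background on all arrays, at -0.60, -0.71, -0.89 and -0.89.

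No member enzyme passed a test for more spread between exposed cultures than probes of like level showed. Spread was tested with limma, which set the variance of each probe between the 4 arrays against a variance fitted as a trend on level over 16659 probes above background on all arrays. Of these probes 0.168% passed at a Benjamini-Hochberg adjusted p under 0.05, and 5.91% had an unadjusted p under 0.05. Of the 9 member probes, 0 passed and 0 had an unadjusted p under 0.05. Their limma adjusted p was 0.998 throughout, and the unadjusted p ran from 0.233 for Ppox probe A_44_P231143 and 0.279 for Alas1 to 0.828 for Urod. The median SD of the 9 probes was 0.17, beside 0.19 over all probes tested. The SD of 6 probes lay below the value fitted at their level, and that of Alas1, Uros and Ppox probe A_44_P231143 above it. A p above the threshold does not show that the cultures were alike.

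**Figure D2:**
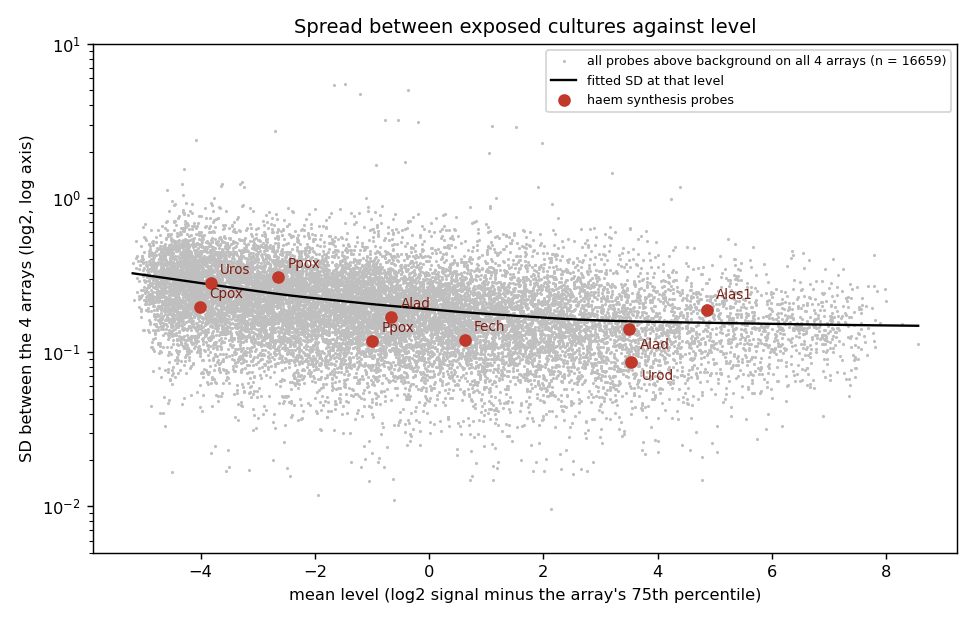
SD between the 4 exposed arrays (log axis) against mean log2 level for 16659 probes above background on all arrays (grey), the SD fitted at each level (line) and the 9 haem synthesis probes (red). The members lie between SDs of 0.09 and 0.31, within the cloud.

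Slc25a37 did not enter that fit because it was above background on only 2 arrays. Its SD was 0.85, with values on replicates 1 and 2 that were not above background. With probes marked positive and significant on all arrays, the unadjusted p was 0.0257 and the limma adjusted p 0.698. With no filter on dim probes, the unadjusted p was 0.00855 and the limma adjusted p 0.244. Admitting probes above background on at least 1 array gave an unadjusted p of 0.0557 and a limma adjusted p of 0.825, but Slc25a37 entered there through the arrays where it was high, so nothing is read from that value.

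On this scale the SD between cultures was 1.09 times the SD of repeat spots for Cpox and 3.38 times for Alas1, the ends of the range over the 9 probes (median 1.68). Ratios were 2.80 for Ppox probe A_44_P231143 and 2.37 and 2.05 for the Alad probes. With arrays centred on their median, the SD was 0.02 for Fech and 0.15 for Cpox, both below the repeat-spot SD of 0.07 and 0.18. It was also below the repeat-spot SD for Cpox without replicate 1 (0.05) and for Alad probe A_44_P1362590 without replicate 3 (0.03, beside 0.08). The same held for Ppox probe A_64_P001255 without replicate 3 (0.08, beside 0.09). Each of these omissions dropped the array where that probe was lowest. Leaving out any other array raised the SD of Cpox, to between 0.21 and 0.24. It also raised that of the Alad probe, to between 0.19 and 0.20. The Cpox SD was again below that of repeat spots with quantile normalization (0.14), cyclic loess (0.15) and outlier spots kept (0.17). After normexp correction the same was true of Uros (0.12, beside 0.17), Urod (0.04, beside 0.06) and Cpox (0.07). The repeat-spot SD was not recomputed for that correction. Repeat spots hold the error within an array alone, whereas the SD between cultures also holds differences between arrays, so the ratio is a description and no test of the members.

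On this scale the 9 probes, from 7 genes, tended to lie low on replicate 3. Their median deviation from their own means was -0.01, 0.09, -0.14 and 0.11 on replicates 1 to 4, beside -0.04, 0.01, -0.03 and 0.08 for all probes tested. On replicate 3, 7 of the 9 probes lay below their own mean, whereas Urod and Cpox lay above it, as did 43.6% of all probes tested. Alad and Ppox each count with both of their probes among the 7. Uros lay next to its mean there, at -0.0045, with 0.13 on arrays centred on their median and -0.14 after normexp correction. Replicate 3 kept the lowest member median in each of 6 alternatives, but with arrays centred on their median its value was -0.01, and those of replicates 2 and 4 were also within 0.01 of 0. The highest median moved between replicates 1, 2 and 4 with the scaling, so no array can be called highest. The members were chosen with earlier results of these arrays known, so they are no independent support for a low replicate 3 in iron and haem genes.

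**Figure D3:**
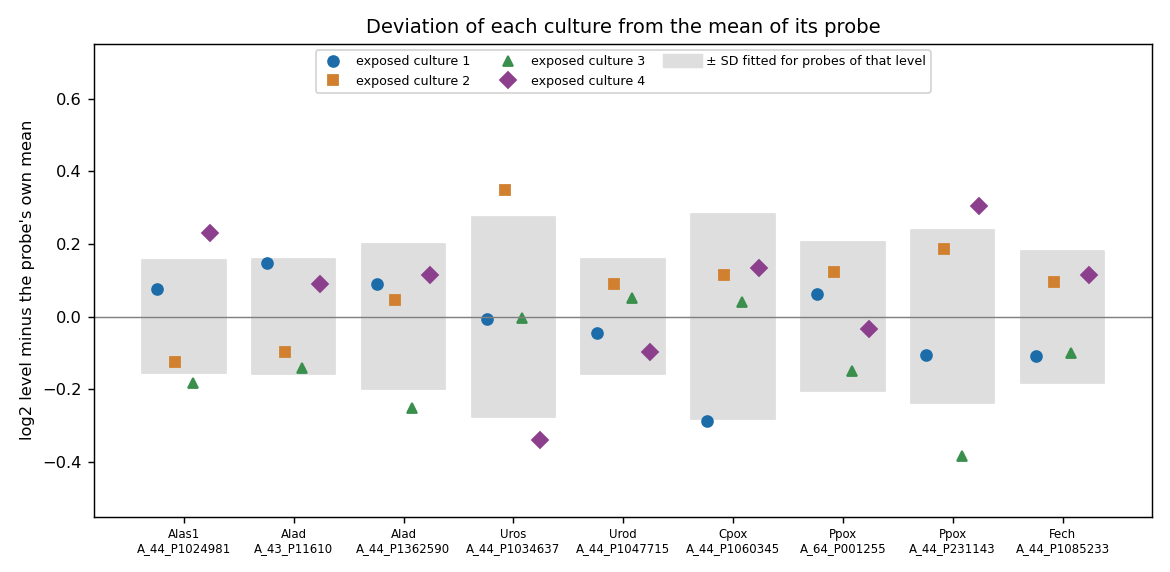
Deviation of each exposed culture from its probe's own mean (log2) for the 9 member probes above background on all arrays; grey bars span ± 1 SD fitted for probes of that level. Triangles (culture 3) lie below 0 for 7 probes, and the widest scatter is in Uros and the second Ppox probe.

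Genes that feed, carry or use haem intermediates were mostly measurable as well. Across Alas2 and 5 lists of other pathway genes, 47 of 54 entries had a named probe. All 4 arrays had 39 of these above background, 2 or 3 arrays had another 2, and the remaining 6 were above it nowhere, against 50.5% of named genes on all arrays. The lists were picked as parts of this pathway, and in the limma test of spread 0 of the 39 passed and 2 had an unadjusted p under 0.05.

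Of 10 measured genes of mitochondrial iron, haem and porphyrin transport, 9 were above background on all arrays. Next to Slc25a28 these included the glycine carrier Slc25a38 (-0.10, 0.04, -0.22 and -0.28 on replicates 1 to 4) and Slc25a39, a mitochondrial glutathione carrier (4.12, 4.19, 3.76 and 4.47). The porphyrin transporter gene Abcb6 was above background on none. All 3 measured ferrochelatase partners and iron donors were above background on all arrays: Pgrmc1 (-0.68 ± 0.17), Pgrmc2 (2.62 ± 0.07) and the iron-sulfur scaffold Iscu (1.80 ± 0.16, SD, n = 4 each).

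Among 8 measured genes of a list chosen for Alas1 turnover and transcription, 5 were above background on all arrays. They were Clpx, the unfoldase that activates and turns over the synthase (-1.11 ± 0.10), the matrix protease Lonp1 (2.34 ± 0.12, SD, n = 4 each), Nr1d2, Nrf1 and Foxo1. The haem-binding repressor Nr1d1 and the coactivator Ppargc1a were above background on none, and the haem-sensing repressor Bach1 on 3 arrays.

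Transcripts of genes for the supply of both precursors were mostly measurable, and the supply itself was not measured. Of 9 measured genes, 8 were above background on all arrays, including Shmt2, which makes glycine in mitochondria (1.99 ± 0.10), and Gcat (-0.80 ± 0.33, SD, n = 4 each). The glycine-cleaving enzyme gene Gldc was above background on none. Of 16 measured genes of haem-requiring proteins and of haem a and c maturation, 14 passed that mark on all arrays. Cox15 (0.36 ± 0.08), the cytochrome c haem lyase Hccs (-2.50 ± 0.22) and cytochrome c, Cycs (2.61 ± 0.21, SD, n = 4 each) were among them. Nos2 was above background on 2 arrays and Ptgs2 on none.

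**Figure D4:**
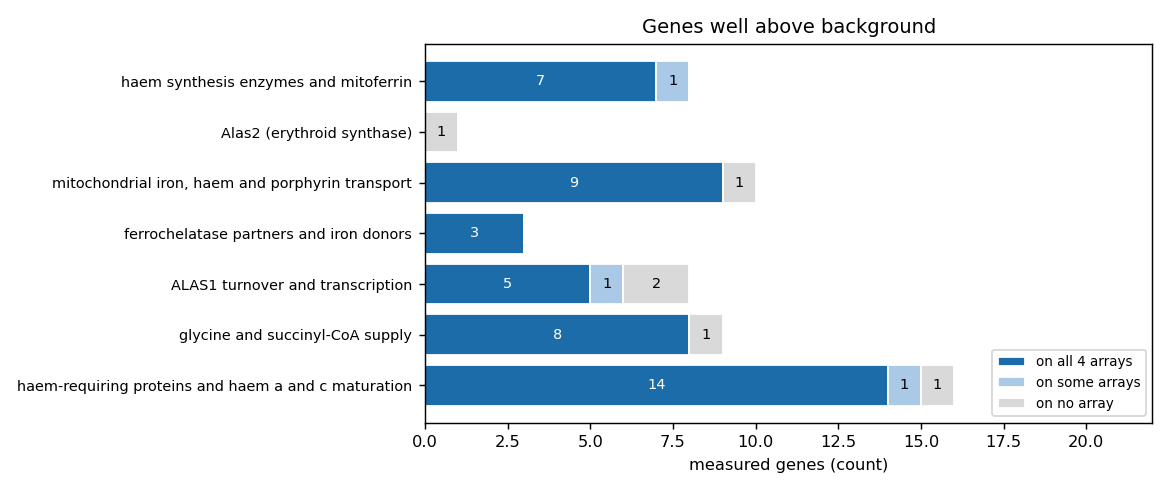
Number of measured genes well above background on all 4 exposed arrays, on part of them or on no array, for the 8 member genes, Alas2 and 5 lists of related genes, by each gene's best probe. All 7 member enzymes fall in the first class and Slc25a37 in the second.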

How the data were processed

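Cy3-labelled cRNA from NR8383 total RNA was hybridised to Agilent arrays, per the labels' protocols. The deposited intensity values came from Agilent Feature Extraction, version 11.0.1.1 in the submitters' processing notes. Per the file headers they are processed signal (background-subtracted, spatially detrended, unscaled between arrays), its error, and median spot and background intensity. Flags of 0 or 1, also deposited by the authors, mark spots above background or as outliers. No scaling between arrays by the authors is stated in these sources.

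Control spots and outlier spots were dropped, the latter unless all spots of a probe were marked. Log2 processed signal minus the array's 75th percentile was averaged over repeat spots. A probe counted as above background where most of its spots did. Accessions were matched, without versions, to RefSeq symbols of the GRCr8 assembly, which named 21109 of 45598 probes. For a listed gene the probe with the most arrays above background was used, and among equals the one of highest mean. Probe positions and sequences were not used here.

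Spread was tested by limma 3.58.1 in R 4.3.3 (upper-tail F, robust trended prior of 10.2 degrees of freedom, Benjamini-Hochberg over 16659 probes) and tested on simulated data. Repeat-spot SD came from probes spotted 10 times within 0.5 log2 of the member on the same array, where at least 10 such probes were above background. The normexp alternative (offset 50) used median spot signals, since mean signals were planned but not used here. Alternatives covered scaling, background, flags, filters, prior and omission of each array. All members were named, with all values; of the lists, Alas2 and the first 3 measured genes of each were given with values, and 2 listed genes are not reported here. Members and lists were chosen with earlier results of these data known.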

Additional observations from a re-analysis of the deposited data

Results flagged for a closer look

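Of 26 sets of 4 array values examined with Dixon's test, 3 had replicate 4 apart from the other arrays, where chance gives about 1 in 20; none was a member probe. Alas2 had a log2 level of -7.06 there, while replicates 1 to 3 ranged from -7.57 to -7.53, although its unscaled signal differed at most 1.1-fold between arrays and was above background on none. Gldc lay at -6.25 on replicate 4, at a signal of 9.96 units against 4.91 to 5.62 units on the other arrays, and was also above background on none. Pgrmc2 had a level of 2.52 there, while replicates 1 to 3 ranged from 2.65 to 2.67. Replicate 4 was the array of lowest 75th percentile (756.5), and the part of this scaling in the 3 values was not tested.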

How the results depend on the processing

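The number of member probes that passed the limma test of spread was 0 under all 16 alternatives, with adjusted p of at least 0.955 for each of the 9 enzyme probes and at least 0.244 for Slc25a37 in the 3 that tested it. Over all probes the number was 28, and it was 66 with probes above background on at least 1 array, 872 with no filter on dim probes, 61 with arrays centred on their median, 304 after normexp correction, 12 with a constant prior, 16 with 1 probe per named gene, and between 11 and 56 when 1 array was left out. The cause of these changes was not tested. Member probes above background were 9 or 10 and member genes 7 or 8, with 10 and 8 under the positive and significant mark or a requirement of 1 array. The median SD of member probes lay between 0.13 and 0.19, and its ratio to repeat-spot SD between 1.59 and 2.04. Levels moved with the reference value of each scaling and carry no meaning outside their own scale. Low signal limits Uros, Cpox and above all Slc25a37, whose processed signal on replicate 1 was below the lowest signal marked as above background there, 16.1 against 22.8 units.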

Other observations

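Red cell genes were examined because Alas2 and Slc25a37 are best known from erythroid cells. Of 14 measured erythroid markers, 2 were above background on all 4 arrays, 2 on 3 arrays and 10 on none. Hba-a1, an alpha globin gene, lay at -1.71, -1.67, -1.81 and -1.37 on replicates 1 to 4, and the erythropoietin receptor gene Epor at -1.28, -1.28, -1.69 and -1.71. Hba-a2 and Klf1 were above background on 3 arrays. The alpha globin gene Hba-a3, the beta globin probes Hbb, Hbb-b1 and Hbb-bs, and Hbe1 were above background on none. The same was true of the erythroid regulator Gata1, the membrane genes Slc4a1, Rhag and Epb42, and Ahsp. The alpha globin probes did not read alike, at 292 to 328 signal units for Hba-a1, 17.4 to 36.0 for Hba-a2 and 4.08 to 7.91 for Hba-a3. Alpha globin genes can be close copies, so the gene behind the Hba-a1 signal is uncertain.

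In the limma test of spread, 2 genes of the pathway lists had an unadjusted p under 0.05, and neither passed after adjustment; both are named after their values were seen. Fam210b, a mitochondrial membrane protein linked to erythroid haem synthesis, lay at -2.50, -2.38, -2.15 and -3.58 on replicates 1 to 4 (unadjusted p 0.00764, limma adjusted p 0.42). Suclg1, a subunit of succinyl-CoA synthetase, lay at 5.60, 5.56, 5.45 and 4.95 (unadjusted p 0.0487, limma adjusted p 0.839). Both were lowest on replicate 4.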
